A study of Mus musculus with 12 samples.

Results

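The genes described here are the mouse Cfap genes, named for cilia and flagella associated proteins. They were taken as every protein-coding gene of the deposited feature table whose symbol begins with Cfap followed by a digit, whatever its level. That gave 31 genes of 55450 in the table, 21951 of which are protein-coding. They were followed in 12 single-cell RNA libraries of testis germ cells from C57BL/6 mice, 3 libraries in each of 4 groups. The groups were wild type at 260 h, Zfp541 knockout at 260 h, wild type at 360 h and Zfp541 knockout at 360 h, counted from an injection of retinoic acid. Every mouse, of either genotype, had been fed the retinoic acid synthesis inhibitor WIN 18,446 for 7 days from 2 days after birth before that injection, so that germ cells entered meiosis together and all groups share this treatment. The 260 h libraries are labelled early pachytene and the 360 h libraries late pachytene, pachytene being the stage of meiotic prophase in which homologous chromosomes are fully paired. Cells were drawn 1 by 1 with a mouth pipette, so they were chosen by eye, and the cDNA was read at its 3′ end. The labels name neither the deleted part of Zfp541 nor how many animals a group held.

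Motile cilia and the sperm tail are built around the axoneme, a ring of doublet microtubules around a central pair. Dynein arms on the doublets slide them past each other, radial spokes and the central apparatus pass on the signals that set the beat, and microtubule inner proteins stiffen the doublets from within. Cfap proteins are found in all of these structures and in the cytoplasmic machinery that assembles dyneins before they enter the tail. In the testis the tail is assembled in spermatids, after meiosis, while messenger RNA for many of its parts is already made in pachytene spermatocytes. The product of Zfp541 is a zinc finger protein that spermatocytes make and that binds histone deacetylases.

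The deposited cell table kept 929 of 1152 barcodes, 50 to 94 per library, with 44624 to 565099 gene UMIs per cell. A UMI, or unique molecular identifier, marks 1 cDNA molecule. Libraries held between 3601518 and 27202665 gene UMIs, and the Cfap genes took 513222 UMIs in all. All 12 libraries used the same set of 96 barcodes, which therefore carry no information on shared cells. Pachytene markers were present in every library, with summed levels of 1452 to 3300 UMIs per 1000000 in wild type and 1286 to 1575 in knockout at 260 h, and of 3307 to 3716 in wild type and 2442 to 2635 in knockout at 360 h. Wild-type replicates 1 and 2 at 260 h stood apart from the other libraries of that time. Of their early pachytene cells, all 25 of replicate 1 and 56 of the 57 of replicate 2 were in the authors' cluster 2, which held no knockout cell of 260 h and 7 of 360 h, while those of wild-type replicate 3 fell in cluster 3 together with all 141 early pachytene knockout cells of 260 h. Wild-type replicate 1 also held 3 late pachytene cells among its 52 kept cells, and no other library of 260 h held any. Its levels over all kept cells include them, and so do the 260 h comparisons of single genes over all kept cells. The 5 Leydig cell markers summed to 107 and 64.6 UMIs per 1000000 in replicates 1 and 2, to 21.4 in replicate 3 and to between 15.1 and 22.2 in knockout. The 6 macrophage markers summed to 51.7 and 93.0 in replicates 1 and 2, to 0.382 in replicate 3 and to between 1.22 and 4.72 in knockout. Insl3 was at 0 in all 3 of these wild-type libraries, Cyp17a1 was also at 0 in replicate 3, and C1qb, C1qc and Csf1r were at 0 in replicate 3. The 260 h results are therefore given with all libraries and again with wild-type replicate 3 alone. The 11 markers of multiciliated cells and duct epithelium summed to 52.3 to 98.4 UMIs per 1000000 in wild type and 107 to 161 in knockout at 260 h, and to 98.4 to 123 in wild type and 50.8 to 59.7 in knockout at 360 h. Epcam and Deup1 held much of that sum, with 139 and 13.6 of the 161 in knockout replicate 2 at 260 h. Foxj1 and Mcidas, 2 defining markers of multiciliated cells, were between 0.23 and 5.50 UMIs per 1000000 in every library, and Gmnc was at 0 in 4 of 12 libraries. The 8 leptotene and zygotene markers at 360 h summed to 681 to 911 in wild type and 1667 to 2481 in knockout, the 8 spermatogonial markers to 53.5 to 189 in wild type and to 169, 629 and 666 in knockout, and the 7 Sertoli cell markers to 31.1 to 66.5 in wild type and to 51.0, 198 and 176 in knockout. Pachytene markers, listed above, were lower in knockout at 360 h. Ovol2 and Tbpl1, which are described below as called lower in knockout at 360 h, are among those 8 markers. The part of all these marker differences in the results below was not tested.

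Most Cfap genes rose between 260 h and 360 h in wild type, and knockout was called lower for 22 of the 29 tested at 360 h and for 10 at 260 h. Counts were summed over the kept cells of each library, scaled by TMM to CPM, which are counts per 1000000 UMIs of the scaled library, and tested with edgeR across all 20279 genes that passed its filter, and calls were made at an adjusted p (Benjamini-Hochberg) under 0.05. In such sums, fewer cells of a class and fewer molecules per cell cannot be told apart. The summed CPM of the 31 genes was 1592, 2271 and 2083 in wild type against 1367, 1559 and 900.2 in knockout at 260 h. At 360 h it was 7402, 8989.9 and 7614 in wild type against 3922, 2591 and 2707 in knockout. At each time every knockout library was below every wild-type library. The gap was wider at 360 h, where the group means were 8002 ± 862 and 3074 ± 737 (SD, n = 3). Of the 6733 Cfap UMIs of wild-type replicate 1 at 260 h, 929 were in pre-meiotic and 4221 in early pachytene cells. The rest came from its 3 late pachytene cells, and whether the library stays above every knockout library without them was not tested. Its early pachytene cells were at 2367 UMIs per 1000000, against 1850, 1997 and 1640 in those of knockout. Its pre-meiotic cells were at 543, against 586, 524 and 436. The mean of wild type at 260 h was 1982 ± 350 and that of knockout 1275 ± 339 (SD, n = 3). Per spike-in UMI instead, the sums of 260 h overlapped, at 0.0131, 0.0264 and 0.0414 in wild type against 0.0157, 0.0133 and 0.0115 in knockout, and those of 360 h did not, at 0.107 to 0.198 against 0.0347 to 0.0444.

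Of the 31 genes, 29 passed the filter, and Cfap97d1 and Cfap100 did not. Between genotypes at 260 h, 10 of the 29 were called lower in knockout and 0 higher, where 1.31% of all genes tested were called lower and 0.582% higher. At 360 h, 22 of the 29 were called lower and 0 higher, against 13.5% and 8.93% of all genes. The median log2 fold change of the 29 was -1.19 at 260 h and -1.86 at 360 h, and that of all genes tested was -0.01 and 0.03. All 10 genes called at 260 h were also called at 360 h, 12 were called at 360 h and not at 260 h, and 7 at neither time. The count at 260 h was 5 without wild-type replicate 2, 6 without knockout replicate 1 and 6 when only the 6 libraries of that time were fitted, and the count at 360 h was 14 without knockout replicate 3. Every knockout library was below every wild-type library for 16 of the 29 at 260 h and 25 at 360 h, as for 7.34% and 24.6% of all genes tested. The mean level left in knockout ranged from 6.14% of the wild-type mean (Cfap73) to 71.7% (Cfap36) at 360 h, with a median of 27.6%. Over time, 26 of 29 were called higher at 360 h than at 260 h in wild type and 0 lower, beside 20.9% and 18.9% of all genes. In knockout 18 of 29 were called higher and 0 lower, beside 13.3% and 10.2%. Each pair of these comparisons shares a group of libraries, so their values are set side by side and not taken as independent. Whether the libraries of 1 group stem from different mice is not stated in the labels, so each p refers to the spread between libraries.

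**Figure D1:**
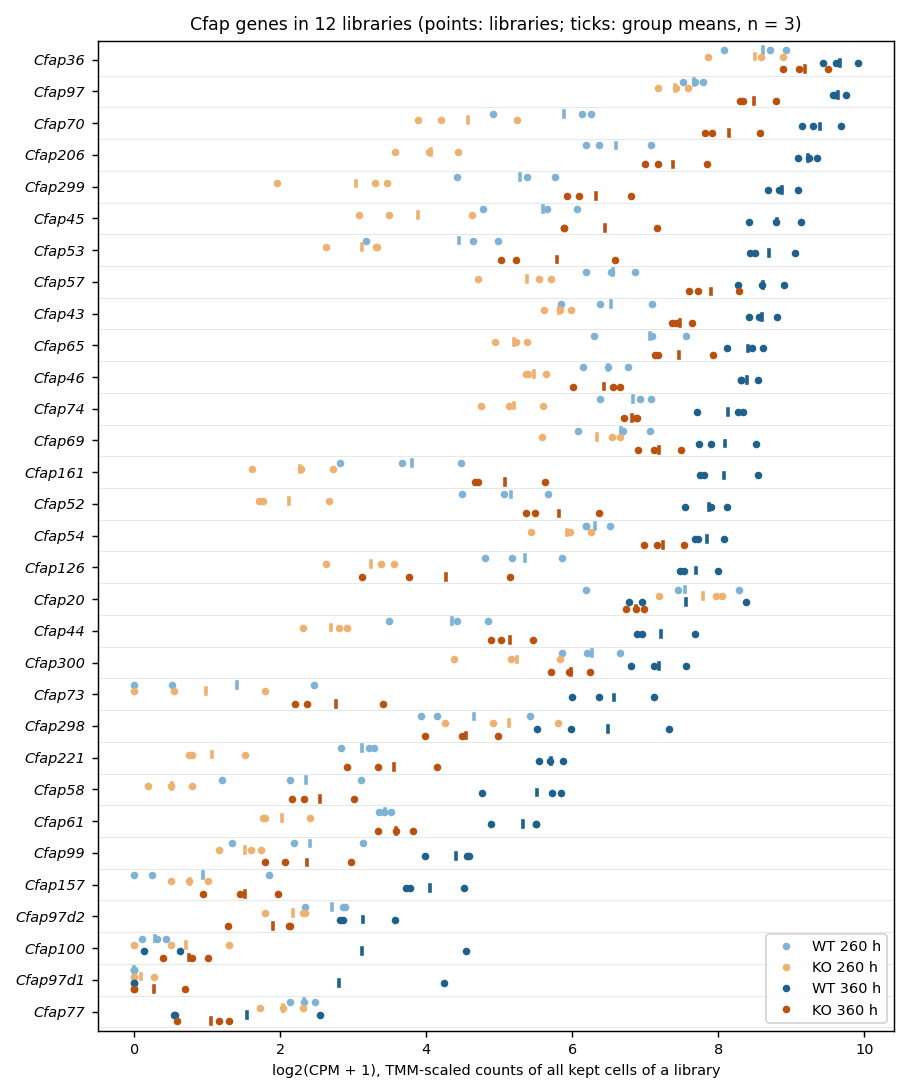
Level of each of the 31 Cfap genes in the 12 libraries, as log2(CPM + 1) on the horizontal axis, with 1 row per gene, 1 point per library and 1 tick per group mean (n = 3), ordered by the wild-type mean at 360 h. The dark blue points (wild type, 360 h) lie to the right of the dark orange points (knockout, 360 h) for most genes, and Cfap97d1 and Cfap100 have 1 wild-type point far from the rest.

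**Figure D2:**
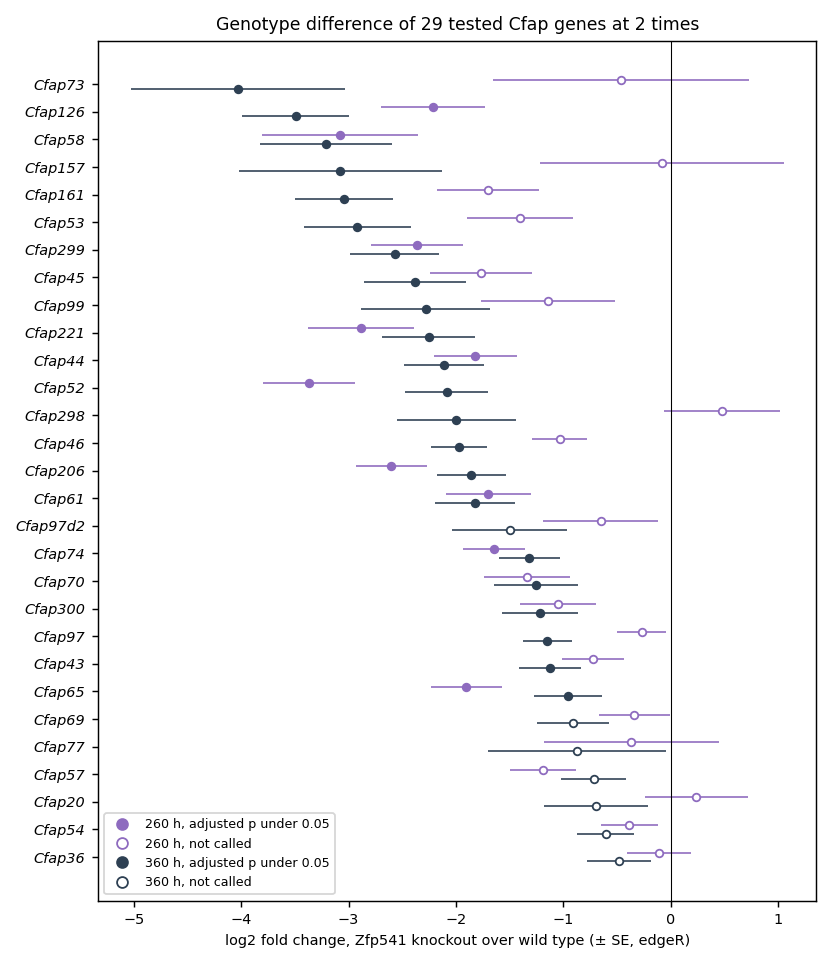
Log2 fold change of knockout over wild type with its standard error for the 29 tested Cfap genes, purple at 260 h and dark blue at 360 h, filled where the adjusted p was under 0.05. All 29 values at 360 h and 27 of 29 at 260 h are below 0, and the filled points number 22 and 10.

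The stretch just before the transcription start of these genes was read from RefSeq (GRCm38.p6) to show what genes that were lower together hold there. RefSeq gave a promoter for 24 of the 31 genes, 16 of them called lower at 360 h, and the 250 bases before each start were searched on both strands. The letters GTTGCC, or GGCAAC on the other strand, form part of the X-box that RFX transcription factors of ciliated cells bind. They were present in 9 of 24 Cfap genes (37.5%) and in 10.4% of all 32851 windows of that length. Among genes called lower at 360 h 7 of 16 held them, and among the others 2 of 8. Those 8 include Cfap97d1 and Cfap100, which were not tested and held no copy. CAGTTG, the core letters of a MYB site, which can overlap GTTGCC by its last 4 letters, was present in 2 of 24 (8.33%), Cfap74 and Cfap161, and in 11.1% of windows. TGACGTCA, the full cyclic AMP response element, was present in 0 of 24 and in 1.55% of windows. These patterns were kept after several others had been searched in the same windows, and some genes have more than 1 window, so the shares are a description. Below are the windows of Cfap161 (chr7:83794840-83795089, minus strand), with 3 copies, of Cfap74 (chr4:155408990-155409239, plus strand), with 2 copies, of Cfap20 (chr8:95434870-95435119, minus strand), which holds 1 copy but was called at neither time, and of Cfap206 (chr4:34730207-34730456, minus strand), which holds none and had the smallest p at 260 h. They are written 5′ to 3′ in the direction of the gene, with GTTGCC or GGCAAC in capitals.
Cfap161: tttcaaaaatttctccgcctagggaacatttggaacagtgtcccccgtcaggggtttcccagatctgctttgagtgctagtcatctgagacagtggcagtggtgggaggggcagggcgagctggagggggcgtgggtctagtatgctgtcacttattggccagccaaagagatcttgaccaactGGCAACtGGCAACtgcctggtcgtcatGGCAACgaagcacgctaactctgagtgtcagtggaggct
Cfap74: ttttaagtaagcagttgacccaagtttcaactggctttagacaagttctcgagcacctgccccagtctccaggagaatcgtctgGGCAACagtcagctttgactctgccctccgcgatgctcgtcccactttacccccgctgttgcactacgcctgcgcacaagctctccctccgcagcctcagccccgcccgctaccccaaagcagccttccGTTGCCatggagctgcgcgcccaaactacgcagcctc
Cfap20: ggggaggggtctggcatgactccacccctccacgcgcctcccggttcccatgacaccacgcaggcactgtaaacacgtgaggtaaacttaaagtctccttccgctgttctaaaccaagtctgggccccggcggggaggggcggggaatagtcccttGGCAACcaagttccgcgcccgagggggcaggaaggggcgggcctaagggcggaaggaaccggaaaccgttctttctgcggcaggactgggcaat
Cfap206: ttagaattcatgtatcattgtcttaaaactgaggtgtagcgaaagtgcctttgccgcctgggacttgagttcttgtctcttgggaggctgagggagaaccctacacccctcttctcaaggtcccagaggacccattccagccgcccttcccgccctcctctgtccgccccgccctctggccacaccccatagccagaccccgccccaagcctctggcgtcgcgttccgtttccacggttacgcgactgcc

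The 8 genes of the central apparatus, whose proteins sit on the pair of microtubules in the middle of the axoneme, all passed the filter. At 260 h 3 were called lower in knockout (median log2 fold change -1.24), at 360 h 6 were (median -1.28), and none was called higher. Cfap221 (PCDP1, a C1 microtubule protein; chr1:119923341-119997234, minus strand) measured 8.28, 8.71 and 6.11 CPM in wild type against 0.735, 0.684 and 1.85 in knockout at 260 h, and 50.8, 57.5 and 45.7 in wild type against 16.6, 6.56 and 9.16 in knockout at 360 h. The 260 h groups did not overlap, and each knockout library at 360 h was near or above the level of wild type at 260 h. Its log2 fold change in knockout was -2.88 ± 0.50 (adjusted p = 0.00613) at 260 h and -2.25 ± 0.43 (adjusted p = 0.00156) at 360 h. Cfap74, another C1 protein (chr4:155409190-155466823, plus strand), was at 82.5, 135 and 121 CPM in wild type against 47.5, 34.1 and 25.9 in knockout at 260 h, and 322, 307 and 208 in wild type against 117, 116 and 103 in knockout at 360 h. The knockout libraries of 360 h lay within the range of wild type at 260 h. Knockout was lower by 1.65 ± 0.29 on the log2 scale at 260 h (adjusted p = 0.0069) and by 1.32 ± 0.28 at 360 h (adjusted p = 0.00363). Cfap65, needed for the sperm tail (chr1:74902071-74935599, minus strand), gave 77.8, 187 and 135 CPM in wild type against 40.7, 29.8 and 36.4 in knockout at 260 h, and 390.4, 352 and 277 in wild type against 243, 139 and 144 in knockout at 360 h. Groups of 1 time did not overlap, and the difference was larger at 260 h, with log2 fold changes of -1.90 ± 0.33 (adjusted p = 0.00638) at 260 h and -0.96 ± 0.32 (adjusted p = 0.0418) at 360 h. The change in that difference was 0.95 ± 0.45 and was not called (adjusted p = 0.248). An antisense gene, Gm15841, overlaps 87 of the last 500 exonic bases of Cfap65, and the strand setting of the counting is unknown.

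Cfap46, also of the C1 microtubule (chr7:139600951-139683817, minus strand), had the smallest p of all 29 genes at 360 h. It measured 69.5, 107 and 89.0 CPM in wild type against 40.2, 40.9 and 49.0 in knockout at 260 h, and 318, 371 and 315 in wild type against 99.6, 63.4 and 93.1 in knockout at 360 h. Every knockout library at 360 h was below 100 CPM while every wild-type library was above 300, and the groups did not overlap at 260 h either. The log2 fold change was -1.97 ± 0.26 (adjusted p = 7.95e-05) at 360 h and -1.03 ± 0.25 (adjusted p = 0.0503) at 260 h, the latter just outside the threshold. Cfap70, a protein with tetratricopeptide repeats placed at the central apparatus and the outer dynein arms, measured 75.4, 69.4 and 29.1 CPM in wild type against 17.4, 36.9 and 13.8 in knockout at 260 h, and 628, 816 and 565 in wild type against 380.1, 224 and 239.8 in knockout at 360 h. It rose over time in both genotypes, by 3.54 ± 0.43 on the log2 scale in wild type (adjusted p = 2.78e-05) and by 3.62 ± 0.43 in knockout (adjusted p = 5.2e-05), and was lower in knockout at 360 h by 1.25 ± 0.39 (adjusted p = 0.0312). Cfap99 was lower in knockout at 360 h by 2.28 ± 0.60 (adjusted p = 0.0127), with 14.8 to 23.0 CPM in wild type and 2.46 to 6.81 in knockout.

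The central apparatus also held 2 of the 5 most abundant genes that were called at neither time. Cfap54 (C1 microtubule) measured 72.1, 90.2 and 72.0 CPM in wild type against 61.3, 75.5 and 42.4 in knockout at 260 h, and 203, 269.8 and 211 in wild type against 183, 142 and 125 in knockout at 360 h. The groups overlapped at 260 h and not at 360 h, where the log2 fold change was -0.60 ± 0.26 (adjusted p = 0.115). Cfap69, found in the sperm midpiece as well as the central apparatus, was at 66.7, 102 and 132 CPM in wild type against 99.3, 92.5 and 46.9 in knockout at 260 h, and 237, 212 and 366 in wild type against 179, 118 and 137 in knockout at 360 h. Its genotype difference at 360 h was -0.91 ± 0.34 (adjusted p = 0.0634), with no overlap between the groups, and at 260 h it was -0.34 ± 0.33, with overlap. Both genes were called higher over time in wild type, by 1.55 ± 0.27 and 1.43 ± 0.34 on the log2 scale (adjusted p = 0.00043 and 0.00373).

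All 7 genes for proteins inside the doublet microtubules passed the filter, of which 2 were called lower in knockout at 260 h and 5 at 360 h (median log2 fold change -1.70 and -2.38). Cfap52, a WD-repeat protein (chr11:67924806-67965651, minus strand), measured 21.5, 49.8 and 32.5 CPM in wild type against 2.39, 5.34 and 2.26 in knockout at 260 h, and 237, 278 and 186 in wild type against 81.2, 40.4 and 44.1 in knockout at 360 h. The 3 knockout libraries of 260 h held at most 5.34 CPM and the wild-type libraries at least 21.5. This was the lowest log2 fold change of the 29 at that time, -3.37 ± 0.43 (adjusted p = 0.00103), and at 360 h it was -2.08 ± 0.39 (adjusted p = 0.00121). The change of the difference between the times, 1.29 ± 0.55, was not called (adjusted p = 0.198). Cfap126 (Flattop; chr1:171113918-171126967, plus strand) was at 35.2, 57.1 and 27.01 CPM in wild type against 10.7, 9.44 and 5.15 in knockout at 260 h, and 178, 254 and 184 in wild type against 34.5, 12.6 and 7.71 in knockout at 360 h. At 360 h the highest knockout library had 34.5 CPM and the lowest wild-type library 178. Cfap126 was lower in knockout by 2.21 ± 0.48 at 260 h (adjusted p = 0.0287) and by 3.49 ± 0.50 at 360 h (adjusted p = 0.00017). It rose over time in wild type, by 2.37 ± 0.47 (adjusted p = 0.00124), and in knockout its change of 1.09 ± 0.47 was not called (adjusted p = 0.109).

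Cfap161 (chr7:83774101-83794880, minus strand), whose promoter above holds 3 copies of the X-box letters, measured 21.3, 11.7 and 6.04 CPM in wild type against 3.86, 5.61 and 2.06 in knockout at 260 h, and 215, 371 and 222 in wild type against 48.5, 24.3 and 25.2 in knockout at 360 h. Groups did not overlap at either time. The gene had the smallest p for time in wild type, with a rise of 4.40 ± 0.49 (adjusted p = 1.73e-05), and knockout was lower by 3.04 ± 0.46 at 360 h (adjusted p = 0.000241). At 260 h its log2 fold change of -1.70 ± 0.48 was not called (adjusted p = 0.0935). Cfap53, a doublet protein needed for left-right patterning of the embryo, was at 30.5, 24.0 and 8.01 CPM in wild type against 8.91, 9.03 and 5.15 in knockout at 260 h, and 346, 529 and 360.3 in wild type against 95.4, 36.5 and 31.6 in knockout at 360 h. Wild-type replicate 3 fell among the knockout libraries at 260 h, and no library overlapped at 360 h. Its log2 fold change was -2.92 ± 0.50 (adjusted p = 0.000745) at 360 h and -1.40 ± 0.50 (adjusted p = 0.209) at 260 h. Cfap45 was called at 360 h only, at -2.38 ± 0.47 (adjusted p = 0.00227), with 340.4 to 559 CPM in wild type and 58.0 to 142 in knockout, and its value at 260 h was -1.77 ± 0.48 (adjusted p = 0.083).

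The other two doublet genes were called in no genotype comparison. Cfap20, a protein of the inner junction of the doublet that is also found outside cilia, measured 71.9, 173 and 311 CPM in wild type against 251, 264 and 144 in knockout at 260 h, and 123, 108 and 331 in wild type against 126, 106 and 116 in knockout at 360 h. The genotypes overlapped at both times, and wild type itself spanned 71.9 to 311 CPM at 260 h and 108 to 331 at 360 h. Its log2 fold changes were 0.24 ± 0.48 (adjusted p = 0.902) at 260 h and -0.69 ± 0.48 (adjusted p = 0.331) at 360 h. Neither it nor Cfap77 was called for time in either genotype. Cfap77 stayed between 0.458 and 4.82 CPM in every library, and its highest value was in wild-type replicate 3 at 360 h.

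Radial spokes, inner dynein arms and their tethers account for 7 genes, 6 of which passed the filter. At 260 h 3 were called lower in knockout and at 360 h 5 (median log2 fold change -1.44 and -1.84). Cfap206, which docks a radial spoke and inner dynein c (chr4:34688559-34730206, minus strand), measured 71.7, 134 and 81.3 CPM in wild type against 20.7, 15.5 and 10.9 in knockout at 260 h, and 604, 653 and 545 in wild type against 228, 126 and 143 in knockout at 360 h. The highest knockout library at 260 h was 20.7 CPM and the lowest wild-type library 71.7. It had the smallest p at 260 h, with a log2 fold change of -2.60 ± 0.33 (adjusted p = 0.00103), and knockout was still lower at 360 h, at -1.86 ± 0.32 (adjusted p = 0.000668). The gene rose strongly with time in each genotype, by 2.65 ± 0.33 in wild type (adjusted p = 3.15e-05) and 3.39 ± 0.34 in knockout (adjusted p = 1.82e-05). Cfap44, a tether of inner dynein f (chr16:44394796-44482428, plus strand), was at 20.3, 27.7 and 10.2 CPM in wild type against 3.95, 6.57 and 5.97 in knockout at 260 h, and 123, 204 and 118 in wild type against 42.9, 28.5 and 31.6 in knockout at 360 h. The groups of 1 time did not overlap, and the difference was -1.82 ± 0.39 (adjusted p = 0.0247) at 260 h and -2.11 ± 0.37 (adjusted p = 0.000782) at 360 h. Its partner in the tether, Cfap43, was called at 360 h only, at -1.13 ± 0.29 (adjusted p = 0.011), with 341 to 446 CPM in wild type and 164 to 198 in knockout.

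Cfap61, of the calmodulin- and spoke-associated complex (chr2:145934784-146215039, plus strand), measured 9.70, 10.5 and 9.17 CPM in wild type against 2.39, 2.46 and 4.32 in knockout at 260 h, and 44.5, 44.4 and 28.6 in wild type against 10.97, 9.12 and 13.1 in knockout at 360 h. Within wild type it was the most even of the genes called at 260 h, with all 3 libraries between 9.17 and 10.5 CPM. All knockout libraries were at or below 4.32. The log2 fold change was -1.70 ± 0.39 (adjusted p = 0.0373) at 260 h and -1.82 ± 0.37 (adjusted p = 0.00254) at 360 h. Cfap73, of the complex that modifies the inner arms, was nearly silent at 260 h, where no library passed 4.49 CPM. At 360 h it reached 63.1, 138 and 81.2 CPM in wild type and 9.58, 3.59 and 4.17 in knockout, which was the lowest fold change of the 29, -4.03 ± 1.00 (adjusted p = 0.0125). Ddx54, on the other strand, overlaps 78 of the last 500 exonic bases of Cfap73. Cfap57, a WD-repeat protein of the inner arms, was called in neither genotype comparison and measured 72.1, 115 and 91.4 CPM in wild type against 45.5, 51.4 and 25.1 in knockout at 260 h, and 385, 477 and 309 in wild type against 309.7, 209 and 194 in knockout at 360 h. At 360 h 1 knockout library reached the lowest wild-type library, and at 260 h the groups did not overlap. The log2 fold changes were -1.19 ± 0.31 (adjusted p = 0.0685) at 260 h and -0.72 ± 0.30 (adjusted p = 0.106) at 360 h, and the rise over time was called in each genotype, at 2.07 ± 0.32 in wild type (adjusted p = 0.000154) and 2.54 ± 0.32 in knockout (adjusted p = 7.85e-05).

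The 2 cytoplasmic factors of dynein assembly were called lower in knockout at 360 h and not at 260 h. Cfap300 had 110.3 to 187 CPM in wild type and 51.2 to 74.8 in knockout at 360 h, a log2 fold change of -1.22 ± 0.35 (adjusted p = 0.0211). Cfap298 measured 16.8, 14.2 and 41.7 CPM in wild type against 29.2, 55.1 and 18.1 in knockout at 260 h, and 44.7, 62.3 and 159 in wild type against 30.5, 14.9 and 21.5 in knockout at 360 h. At 260 h the groups overlapped, with means of 24.2 ± 15.2 in wild type and 34.2 ± 19.0 in knockout (SD, n = 3). At 360 h they did not, and wild-type replicate 3 was well above the other libraries. The log2 fold change was 0.48 ± 0.54 (adjusted p = 0.796) at 260 h and -1.99 ± 0.55 (adjusted p = 0.0181) at 360 h. All of the last 500 exonic bases of Cfap298 lie under genes of the opposite strand, 4930534H18Rik and Gm49727, so its reads cannot be told apart from theirs if counting ignored strand.

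Of the 3 genes of the basal body and of other or unclear roles, 2 were called lower in knockout at 360 h and none at 260 h. Cfap97, named by homology to a protein of fly spermatids, measured 183, 205 and 220.2 CPM in wild type against 169.6, 191 and 144 in knockout at 260 h, and 760.1, 858 and 766 in wild type against 443, 312 and 321 in knockout at 360 h. At 360 h all knockout libraries were below all wild-type libraries, and at 260 h the groups overlapped. The rise over time was 1.97 ± 0.23 (adjusted p = 2.4e-05) in wild type and 1.09 ± 0.23 (adjusted p = 0.00332) in knockout, and knockout was lower at 360 h by 1.15 ± 0.23 (adjusted p = 0.00208). Cfap157, a basal body protein, was under 3 CPM in every library but those of wild type at 360 h, which had 12.2, 22.0 and 12.7, and its difference there was -3.08 ± 0.95 (adjusted p = 0.0284). Cfap36, which binds the small GTPase ARL3, was the most abundant Cfap gene called at neither time, at 269, 417 and 487 CPM in wild type against 384, 474 and 231 in knockout at 260 h, and 689, 779.8 and 965 in wild type against 725, 472 and 548 in knockout at 360 h. The genotypes overlapped at both times, with log2 fold changes of -0.11 ± 0.30 (adjusted p = 0.935) at 260 h and -0.48 ± 0.30 (adjusted p = 0.275) at 360 h, and the rise over time was called in wild type at 1.05 ± 0.30 (adjusted p = 0.0124).

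The last 4 genes are known from the sperm tail or the testis, and 3 of them passed the filter. Cfap58, needed for the midpiece of the tail (chr19:47937675-48035387, plus strand), measured 7.57, 3.38 and 1.31 CPM in wild type against 0.735, 0.137 and 0.412 in knockout at 260 h, and 26.2, 51.9 and 56.2 in wild type against 7.06, 3.48 and 3.99 in knockout at 360 h. Wild-type replicate 1 at 260 h held 32 Cfap58 UMIs, 3 of them in pre-meiotic and 13 in early pachytene cells. The others were in its 3 late pachytene cells, which also held part of that library's UMIs of other Cfap genes, given below. No library of 1 genotype reached the other at either time, although wild-type replicate 3 at 260 h came within 1 CPM of the highest knockout library. Its log2 fold change was -3.08 ± 0.72 (adjusted p = 0.0396) at 260 h and -3.21 ± 0.61 (adjusted p = 0.00149) at 360 h. Cfap299, a testis gene of unclear role (chr5:98329304-98802047, plus strand), was at 53.2, 40.7 and 20.5 CPM in wild type against 8.81, 9.99 and 2.88 in knockout at 260 h, and 454, 546 and 410.0 in wild type against 110.4, 59.8 and 67.0 in knockout at 360 h. The genotypes were apart at both times, by -2.36 ± 0.43 (adjusted p = 0.00922) at 260 h and -2.57 ± 0.42 (adjusted p = 0.000423) at 360 h, and the gene rose with time in wild type by 3.63 ± 0.44 (adjusted p = 2.64e-05) and in knockout by 3.42 ± 0.44 (adjusted p = 9.11e-05). Cfap97d2 was low throughout, at 1.43 to 10.9 CPM, and its difference at 360 h, -1.50 ± 0.54 (adjusted p = 0.0571), was not called.

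Cfap97d1, needed for a stable sperm tail, and Cfap100, a partner of Cfap73 in the inner arm complex, were set apart by 1 library. These genes were singled out after their values were seen. Wild-type replicate 3 at 360 h held 405 UMIs of Cfap97d1 and 506 of Cfap100. No other library held more than 6 and 16. In that library 4 cells of cluster 5 were rich in the 8 round spermatid markers, such as protamines and transition proteins, with 900 to 5691 marker UMIs per 1000000 against at most 247 in any other kept cell. Those cells carried 339 of the 405 Cfap97d1 UMIs and 475 of the 506 of Cfap100. The marker sum of the whole library was 215 per 1000000, against 16.3 and 17.0 in the other wild-type libraries of 360 h and 4.63 to 7.77 in knockout. Without these 4 cells, 23 Cfap genes were called lower in knockout at 360 h, Cfap97d2 among them at -1.54 ± 0.53 (adjusted p = 0.0447), and Cfap298 was at -2.03 ± 0.56. The same removal brought Cfap77 to a called decrease over time in wild type, at -2.56 ± 0.66 (adjusted p = 0.00612), and its genotype difference at 360 h from -0.87 to 0.67, neither called.

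The 260 h result rests in part on wild-type replicates 1 and 2. The 3 late pachytene cells of replicate 1 held part of its UMIs of other genes than Cfap58. Of 225 Cfap299 UMIs, 21 were in its pre-meiotic and 106 in its early pachytene cells. In that order there were 8 and 45 of 91 for Cfap52, 8 and 48 of 86 for Cfap44 and 3 and 18 of 41 for Cfap61. For Cfap161 they were 5 and 27 of 90, and for Cfap53 18 and 37 of 129. Less came from the late cells for Cfap65, at 38 and 229 of 329, and Cfap74, at 28 and 245 of 349. With wild-type replicate 3 as the only wild-type library of that time, 4 of the 10 genes were called lower in knockout, Cfap206, Cfap52, Cfap65 and Cfap74, and 0.357% of all genes were. The single library is then assumed to vary like the others. Their log2 fold changes were -2.47 ± 0.41, -3.40 ± 0.48, -2.06 ± 0.37 and -1.86 ± 0.39 in that order. In cluster 3, which holds cells of wild-type replicate 3 and of all 3 knockout libraries, Cfap206 was at 94.6 UMIs per 1000000 in wild type and 27.2, 16.6 and 20.2 in knockout. Cfap52 there was at 37.5 in wild type and 1.12, 5.28 and 3.01 in knockout. Cfap65 was at 155 against 56.3, 39.3 and 66.6, and Cfap74 at 139 against 66.4, 45.2 and 44.7. The same 4 genes, of 27 tested, were called when early pachytene cells alone were summed with that 1 wild-type library, where 0.58% of all genes were called lower. With early pachytene cells of all libraries, 6 of 26 were called lower, Cfap126 and Cfap299 beside those 4, with 1.2% of all genes. In pre-meiotic cells 0 of 20 tested were called, with 0.00818% of all genes called lower. The log2 fold changes there had a median of -1.09 over the 20 genes, where the same genes had -1.26 with all cells, 18 of 20 were below 0 and 10 had an unadjusted p under 0.05. Cfap65 was at -2.18 ± 0.50 (adjusted p = 0.117) and Cfap206 at -2.05 ± 0.53 (adjusted p = 0.161).

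**Figure D3:**
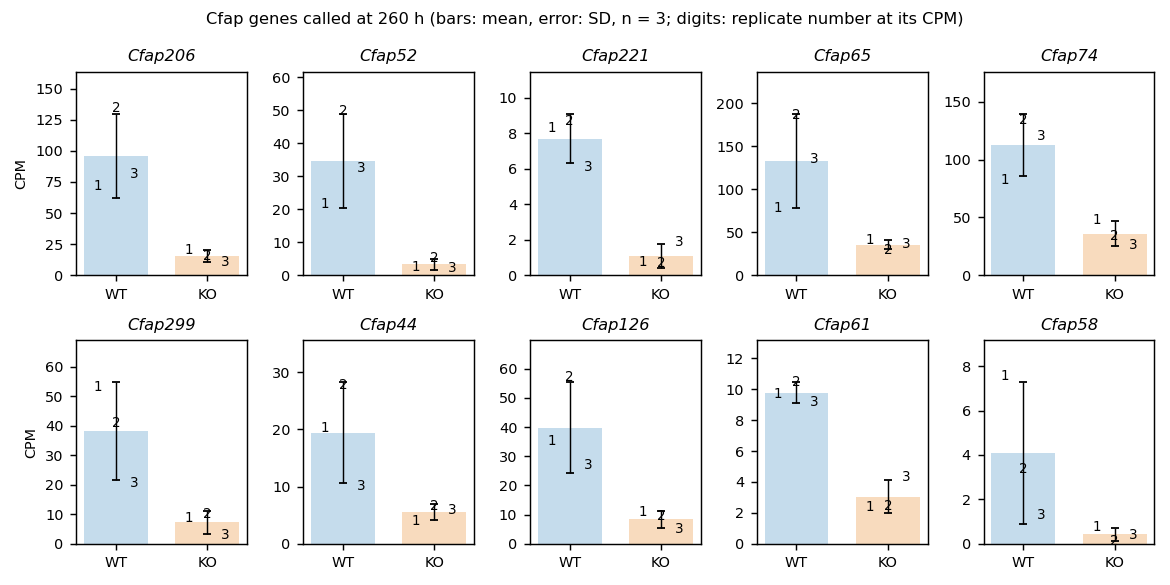
CPM of the 10 Cfap genes called at 260 h, 1 panel per gene with its own vertical scale from 0; bars are group means with SD (n = 3) and the digits mark each library's replicate number at its CPM. In all 10 panels each wild-type digit is above each knockout digit, and the digit 3 of wild type is the lowest for Cfap221, Cfap299, Cfap44, Cfap126, Cfap61 and Cfap58.

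At 360 h the authors' clusters nearly coincided with genotype. Cluster 4 held 220 knockout cells and 2 cells of wild type at 260 h, and cluster 5 held 267 wild-type cells of 360 h and 1 of 260 h. Knockout replicates 2 and 3 at 360 h also held 9 and 10 pre-meiotic cells, against at most 2 per wild-type library. With late pachytene cells alone, 23 of 28 tested Cfap genes were called lower in knockout at 360 h, beside 19.4% of all genes, and the median log2 fold change of the 28 was -1.73 there and -1.91 with all cells. Each cell was also thinned to 40000 gene UMIs, which left out no cell, to set its Cfap molecules beside those of cells of other depth. The median per cell was 26 Cfap UMIs in cluster 1 (pre-meiotic, 137 cells), 106 in cluster 2 and 80 in cluster 3 (early pachytene, 88 and 214 cells), 124 in cluster 4 and 254 in cluster 5 (late pachytene, 222 and 268 cells). The 10% to 90% range was 97.1 to 155 in cluster 4 and 221 to 289.3 in cluster 5. Cells of cluster 5 had a median of 25 of the 31 genes with a UMI after thinning and those of cluster 4 a median of 20, with 11 in cluster 1. Within cluster 5 the summed level was 6241, 6502 and 6347 UMIs per 1000000 in the 3 wild-type libraries, and within cluster 4 it was 3601, 2873 and 2984 in the 3 knockout libraries. The clusters were made from the genes of these same cells, so these values describe them and test nothing.

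**Figure D4:**
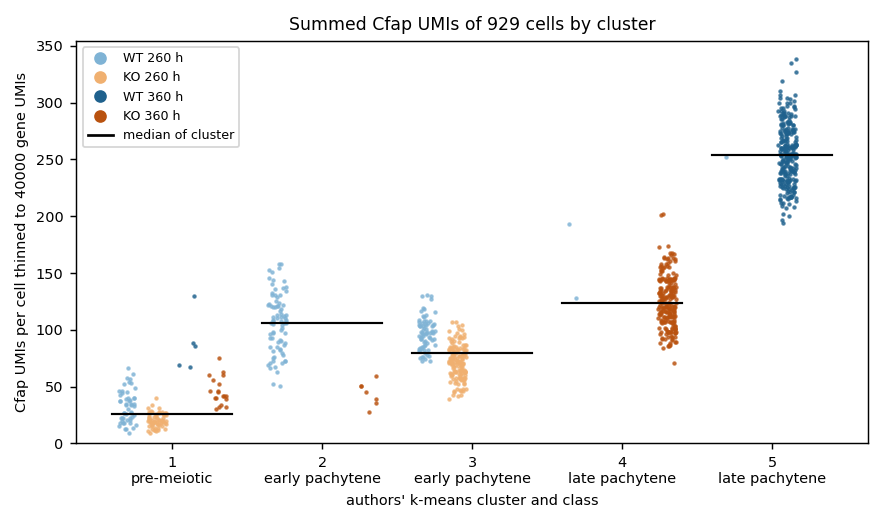
Summed UMIs of the 31 Cfap genes per cell after thinning to 40000 gene UMIs (vertical axis), by the authors' k-means cluster and class (horizontal axis), 1 point per cell colored by group, with a line at the cluster median. The wild-type cells of 360 h in cluster 5 sit around 254 and the knockout cells of cluster 4 around 124, with little overlap.

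The members differed in how far their messages were spread over cells, here as UMIs per 1000000 of a cluster and as the share of thinned cells with a UMI. Cfap36 was found in 97.1% of cells of cluster 1 and in 100% of those of each later cluster. Cfap161 was found in 11.7% of cluster 1, 67.6% of cluster 4 and 100% of cluster 5. Cfap73 was found in 6.57% of cluster 1, 15.8% of cluster 4 and 84.7% of cluster 5, at 2.06, 5.64 and 73.0 UMIs per 1000000. Cfap126 was found in 41.9% of cluster 4 and 99.3% of cluster 5, at 18.3 and 161 per 1000000. Cfap57 was at 244 per 1000000 in cluster 4 and 297 in cluster 5, and it had a UMI in every thinned cell of both. The shares of low genes depend on depth as well as on level, and free RNA was not measured in these libraries.

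The genotype difference was not shown to change between the times for any Cfap gene. By edgeR 0 of 29 were called for the difference of the genotype effects, beside 2.3% of all genes called higher and 2.78% lower, while 6 of the 29 had an unadjusted p under 0.05, as did 4185 of the 20279 genes. DESeq2, which called 7.38% of the genes it tested lower, called 1 member, Cfap298, at -2.54 ± 0.78 (adjusted p = 0.015), where edgeR gave -2.48 ± 0.77 (adjusted p = 0.0791). By edgeR 2 were called without wild-type replicate 1 of 260 h, 1 without wild-type replicate 3 of that time and 2 without knockout replicate 1 of 360 h. The 12 genes called at 360 h and not at 260 h are therefore not shown to respond later. Likewise, 8 genes rose in wild type without being called in knockout, Cfap36, Cfap69, Cfap73, Cfap99, Cfap126, Cfap157, Cfap298 and Cfap300, and none of them was called for the difference. Cfap73 had the lowest value there, -3.57 ± 1.52 (adjusted p = 0.206).

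Of other axoneme genes, in lists by the same structures, part were called lower in knockout and none higher. These lists were drawn up with earlier results of the same data known. At 360 h the genes called lower were 9 of 10 tested central apparatus companions, 8 of 14 radial spoke genes, 7 of 12 of the nexin-dynein regulatory complex and ruler, 10 of 16 tektins and microtubule inner proteins, 8 of 20 axonemal dynein and docking genes and 7 of 12 preassembly factors. At 260 h they were 3, 4, 0, 2, 2 and 2 in that order. Of all genes tested, 13.5% were called lower at 360 h and 1.31% at 260 h. Ruvbl1 was called at neither time and had a mean of 184 CPM in each genotype at 360 h. Spef2 was called lower at 360 h and had means of 30.4 CPM in wild type and 61.8 in knockout at 260 h, not called. Both were singled out after their values were seen. Spag6l, an armadillo-repeat protein of the central apparatus, was at 768, 974 and 502 CPM in wild type against 291, 196 and 209.8 in knockout at 360 h, a log2 fold change of -1.69 ± 0.28, adjusted p = 0.000494. Efcab6, an EF-hand protein, was at 202, 273 and 128 CPM in wild type against 6.05, 6.97 and 6.26 in knockout at 360 h (-4.96 ± 0.43, adjusted p = 2.42e-06). Ccdc40, part of the ruler that spaces spokes and dyneins, was lower at 360 h by 2.36 ± 0.39 on the log2 scale (adjusted p = 0.00049), Dnah10, a heavy chain of inner dynein f, by 3.21 ± 0.52 (adjusted p = 0.000436) and Pih1d3, a preassembly factor, by 3.84 ± 0.44 (adjusted p = 2.64e-05). Dydc1, of the radial spoke list, was at 27.8 to 91.2 CPM in wild type and 0.181 to 1.02 in knockout.

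Among 15 transcription factors and cofactors of cilia and male germ cells, 6 were called lower in knockout at 360 h and 1 at 260 h, beside 13.5% and 1.31% of all genes. Ovol2, a zinc finger factor of pachytene spermatocytes, had 72.1, 97.5 and 138 CPM in wild type against 2.27, 0.717 and 0.635 in knockout at 360 h (-6.44 ± 0.65, adjusted p = 7.82e-06). Tbpl1 and Tcfl5 were lower by 2.00 ± 0.28 and 1.90 ± 0.30 (adjusted p = 0.000149 and 0.000392), and Crem, Sox30 and Rfx4 were the others. Rfx4 was the 1 factor called at both times, at -1.46 ± 0.31, adjusted p = 0.0263 at 260 h and -0.92 ± 0.31, adjusted p = 0.0415 at 360 h. Rfx1, Rfx2, Rfx3, Foxj1 and Mybl1 were called at neither time, and Rfx2 was at -0.84 ± 0.34, adjusted p = 0.28 and -0.53 ± 0.33, adjusted p = 0.278. Zfp541 itself had 199.8, 178 and 169.6 CPM in wild type against 156, 130.5 and 151 in knockout at 360 h, and 38.1, 84.1 and 129 against 123, 99.1 and 75.8 at 260 h. It was called at neither time (0.24 ± 0.34, adjusted p = 0.846 and -0.32 ± 0.34, adjusted p = 0.532), and since the deleted part is not given and the counts come from 3′ ends, this checks neither the labels nor the loss of the protein.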

How the data were processed

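Each deposited table holds raw UMI counts per gene and cell barcode, per the file headers. Reads were handled with STAR 2.5.3a, featureCounts 1.6.4 and UMI-tools 1.0.0 on mm10, per the submitters' processing notes. Their settings, the use of strand, and the filters and clustering behind the authors' deposited cell table (5 k-means clusters, 3 classes) are not given here. How doublets were treated is also unknown, and since cells were picked singly no caller for them was applied.

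Only kept cells were used. The 92 ERCC spike-ins (3.10% to 11.9% of UMIs per library) entered neither library sizes nor tests. Counts were summed per library, filtered with filterByExpr, scaled by TMM and tested with edgeR 4.0.16 in R 4.3.3 (quasi-likelihood F-test, robust, two-sided, 1 coefficient per group, all 12 libraries, Benjamini-Hochberg over 20279 genes, threshold 0.05, common biological coefficient of variation 0.4855). The procedure was tested on simulated data. Group values are mean ± SD over 3 libraries and log2 fold changes carry ± SE. Gene positions and exon overlaps come from the deposited feature table and promoters from RefSeq.

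Per-library values were given for the 10 members with the smallest p among those called in each genotype comparison, up to 5 for time in each genotype, and the 5 most abundant members called in neither genotype comparison. Those of Cfap298, Cfap73 and Cfap157 fell outside this rule, and these genes were chosen after their values were seen. Of each companion list up to 3 called members were eligible, and Zfp541 always. The members and lists were chosen with earlier results of these data known. Alternatives were DESeq2 1.42.0, its size factors, no filter, spike-in scaling, thinned cells, each class alone, only the libraries compared, a replicate block and leaving out each library. Leaving out cells rich in round spermatid markers (over 500 UMIs per 1000000) and using early pachytene cells with wild-type replicate 3 alone were chosen after seeing the data, and so was that threshold.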

Additional observations from a re-analysis of the deposited data

How the results depend on the processing

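No alternative called any Cfap gene higher in knockout than in wild type. The count of members called lower at 260 h was 10 with all libraries, 6 when only the libraries compared were fitted, 6 with early pachytene cells, 0 with pre-meiotic cells, 4 with wild-type replicate 3 alone and 4 with both restrictions. Leaving out each library in turn gave 5 to 14 at 260 h, with 5 without wild-type replicate 2 and 6 without knockout replicate 1. At 360 h it gave 14 to 24, with 14 without knockout replicate 3. For time it gave 24 to 27 in wild type and 17 to 20 in knockout. The difference of the genotype effects had 1 call by DESeq2, 2 without a filter and 0 to 2 when a library was left out. The replicate numbers did not pair the samples, since the deviations of same-numbered libraries correlated at -0.20 to 0.17 over 18 pairs, and a replicate block gave 11, 21, 26, 18 and 0 calls in the 5 comparisons. The log2 ratio of the summed Cfap level at 360 h was -1.40, from -1.59 to -1.29 when a library was left out, and -1.86 with spike-in scaling, which shifted the median over every tested gene (log2) to -0.48 at 360 h and -0.28 at 260 h. At 260 h it was -0.66, from -0.82 to -0.42. Under some alternative the direction turned at 260 h for 11 of the 29 genes and at 360 h for 1, Cfap77, all uncalled on both sides. Of the genes with results tracked under each alternative, 3 were among the 11. Cfap36 ranged from -0.43 to 0.10 when a library was left out, being above 0 without wild-type replicate 3 (0.02) and without knockout replicate 3 (0.10), and was at 0.035 in early pachytene cells. Cfap20 ranged from -0.20 (without wild-type replicate 1) to 0.78, and was at -0.33 with spike-in scaling, -0.26 in pre-meiotic cells, -0.61 with wild-type replicate 3 alone and -0.18 with that library's early pachytene cells. Cfap54 was at 0.14 in the last of these. The cause of these changes was not tested, beyond fewer samples or genes where libraries or cells were left out. Over 40 results for single genes, 797 values kept direction and call, 52 lost the call and 11 gained it. Low members are limited by depth, since 1 CPM stands for 4.23 to 22.6 UMIs in a library.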
